A study of Mus musculus with 79 samples.

Results

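The genes described here encode the proteins of the cytosolic ribosome. They were chosen by symbol alone: Rpl or Rps followed by a number, with or without the endings a, x or al, together with Rplp0, Rplp1, Rplp2 and Rpsa. This rule found 77 genes among the 38879 of the deposited table, 47 of the large subunit and 30 of the small subunit. All 77 have protein-coding gene models in GENCODE M21 (GRCm38, mm10). They lie on 19 chromosomes, with 14 on chromosome 7 and 4 on the X chromosome. Fau and Rps3a1 encode further ribosomal proteins whose symbols fall outside the rule, and Rack1 encodes a protein bound to the small subunit; these are described apart, with the genes that make and regulate ribosomes.

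The ribosome joins amino acids in the order set by messenger RNA. The small subunit binds the message and reads its codons, and the large subunit forms the peptide bonds and holds the exit tunnel. Ribosomal proteins are imported into the nucleolus, where they are assembled with ribosomal RNA. Many of their messages begin with a C and a run of further pyrimidines at the cap, the 5′ terminal oligopyrimidine (TOP) motif, through which the growth kinase mTOR and the RNA-binding protein Larp1 control their translation. In neurons, ribosomes and messages for ribosomal proteins are found in dendrites and axons as well as in the cell body, and local protein synthesis is tied to synaptic plasticity.

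RNA came from 20 mice, all male and of the C57Bl/6J strain, and from 4 kinds of neuron in their medial prefrontal cortex. Pyramidal neurons (PYR) excite their targets. The other 3 kinds are inhibitory interneurons, named after the protein or peptide that marks them: parvalbumin for PV, somatostatin for SST and vasoactive intestinal peptide for VIP neurons. The 10 UCMS mice went through unpredictable chronic mild stress for 5 weeks, a changing series of mild stressors that included restraint, predator odour, wet bedding and shifted light, and they lived singly. The 10 control mice were not stressed and lived in groups with their littermates, so housing and stress cannot be told apart in any comparison of the arms. Mice of both arms went through tests of anxiety-like and depressive-like behaviour in weeks 4 and 5. Cells were marked in sections with RNAscope probes for their type and cut out by laser, 130 cells to a library, and each library came from 1 type of 1 mouse. There were 10 libraries for each type and arm, except 9 for PV neurons of UCMS mice, where mouse U609 had none. The question was which genes differ between the arms in each type, and the types could also be compared with each other within the same mice.

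The 79 libraries held 3642579 to 13529571 reads on genes and 9033 to 20307 genes with a read. The defining markers followed the labels. Slc17a7, a vesicular glutamate transporter, had a median of 14327 normalized counts in control PYR libraries. Its medians in the control libraries of the other types were at most 4622. Pvalb, Sst and Vip had medians of 743, 12726 and 4796 in their own types. Camk2a, often taken as a pyramidal marker, did not follow the labels. Against the average of the other types of control mice, its log2 fold change was 0.73 in VIP, 0.46 in PYR and -0.51 in SST neurons. Whether the interneuron libraries hold pyramidal material was not tested. Other cells were present in every group: the 10 astrocyte markers summed to medians between 7869 and 13575 normalized counts per group, and the 11 oligodendrocyte markers to medians between 1500 and 2788. The defining markers Aqp4 of astrocytes and Cx3cr1 of microglia were at 0 in some libraries. Each library pools 130 cells, so fewer cells with a transcript and less transcript per cell cannot be told apart.

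The stretch around the transcription start is shown because it holds the TOP motif that many of these genes share. RefSeq starts (GRCm38.p6) were matched by gene for 57 of the 77 members. The windows below run from 15 bases before the start to 15 bases from it on, on the coding strand, so that base 16 is the annotated start; capitals mark the longest run of C and T.
Rpl7a (chr2:26910792-26910821, plus strand): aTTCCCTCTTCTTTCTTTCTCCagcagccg
Rpl27a (chr7:109519180-109519209, plus strand): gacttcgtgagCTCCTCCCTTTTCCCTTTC
Rplp2 (chr7:141447636-141447665, plus strand): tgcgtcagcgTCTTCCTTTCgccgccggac
Rps6 (chr4:86857353-86857382, minus strand): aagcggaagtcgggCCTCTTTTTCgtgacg
Rps24 (chr14:24490663-24490692, plus strand): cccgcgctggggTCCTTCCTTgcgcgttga
Rps23 (chr13:90923107-90923136, plus strand): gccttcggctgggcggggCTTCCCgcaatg
Rpl36a (chrX:134585639-134585668, plus strand): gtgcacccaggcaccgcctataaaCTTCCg
Rpl7a and Rpl27a have runs of 21 and 19 bases, among the longest of the members, and the other 5 genes recur in the results below; for Rps24 the first of its RefSeq starts is shown. In Rps6, Rps24 and Rplp2 the run covers the annotated start, whereas Rpl36a has a run of only 5 bases.

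A run of at least 8 C or T within these 30 bases was present for 25 of the 57 matched members (43.9%) and for 13.9% of the 27025 genes with a RefSeq start. Runs of at least 10 were present for 33.3% of the members and 6.25% of all genes. The letters CGGAAG or their reverse complement CTTCCG, the core of the binding site of ETS factors, were found from 150 bases before to 50 after the start in 56.1% of the members and 15.6% of all genes. CTTCCG shares its first 5 letters with a pyrimidine run, so some matches overlap. TATAAA, on either strand and between 40 and 10 bases before the start, was found for 0 of the members and 3.20% of all genes. In Rpl36a these letters stand in the printed window just downstream of the annotated start, outside the stretch searched. These are matches of letters, described without a test.

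Ribosomal protein messages were measured in every library, at levels that differed widely between genes. Per kb of the principal transcript, the median member stood at 422 normalized counts in the large subunit and 451 in the small. Highest of the large subunit were Rplp1 (2168), a stalk protein that helps recruit elongation factors, Rpl26 (1583), Rpl3 (1563), part of which reaches toward the peptide-forming centre, and Rpl41 (1032), a very short protein. Among the highest of the small subunit were Rps6 (1185), the substrate of the S6 kinases, Rps23 (1125), which lies at the decoding site, and Rps7 (830). Lowest of the large subunit were Rpl24 (1.04), Rpl13a (19.2), Rpl18 (94.3) and Rpl35 (133), and among the lowest of the small subunit were Rps20 (65.2), Rps15a (97.5) and Rps16 (162). Altogether 65 of the 77 genes lay between 100 and 1000 normalized counts per kb. The 10 most abundant members held 33.7% of all reads on ribosomal protein genes, and the large subunit held 62.4%. The values per kb depend on the gene model: the principal transcript of Rps15a spans 5130 bases, the longest of all members, against a median of 780.

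**Figure D1:**
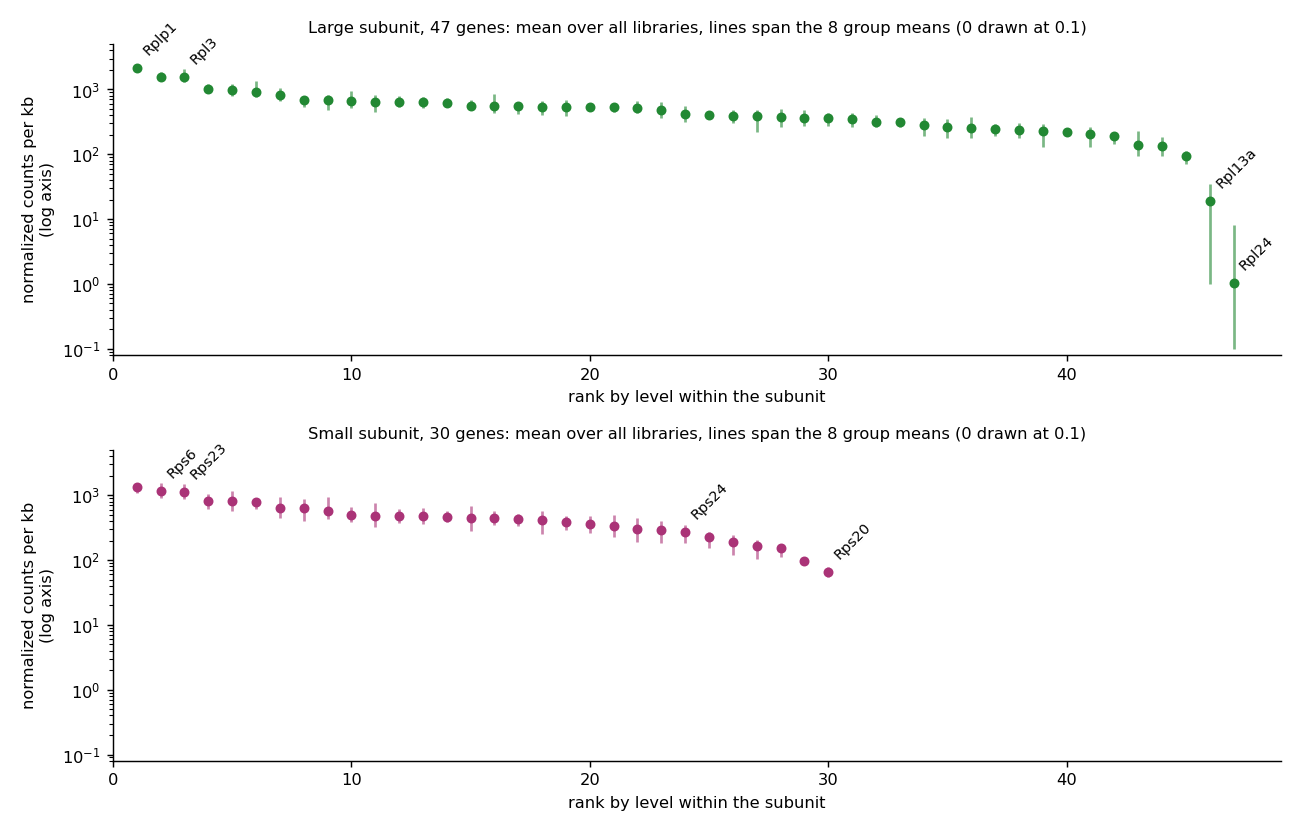
Level of each of the 77 ribosomal protein genes in normalized counts per kb of principal transcript (vertical log axis), large subunit above and small subunit below, in order of level (horizontal axis). Points are means over all 79 libraries and lines span the 8 group means; most genes sit between 100 and 1000, and Rpl24 and Rpl13a stand far below the rest.

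Some of the lowest values stood beside overlaps in the annotation. Rpl24, a protein of the intersubunit face, had 60 reads in all and 0 reads in 77 of the 79 libraries, which allows up to 3 reads in each. Of its exon bases, 71.5% are shared on the same strand with the overlapping gene model Gm28037. Rpl13a had 0 reads in 44 libraries, and 59.3% of its exon bases are overlapped on the same strand by Gm45713 and Mir5121. Exons of other genes touched 18 members and covered most of the exon bases in 6. Sequence is also shared with other genes, through copies elsewhere in the genome or through overlap at the same place. The median member had 44.7% of its 50-base words, on either strand, in the transcript of another gene. Rpl3, Rpl36a, Rps6 and Rps24, which recur below, had 85.6%, 85.5%, 84.6% and 19.1%. Rpl5, Rpl35 and Rps27 had over 90%. In Rpl35 and Rpl5 part of this is overlap, as exons of other genes on the opposite strand cover 68.3% and 46.6% of their exon bases. How the authors' counting treated such reads is not given in the sources used here, so levels of single members are uncertain to that extent. Across the 77 genes the shared percentage had a Spearman rho of 0.206 with the level per kb (across genes, which are not independent replicates). The 214 table entries named as pseudogene copies of 54 members held reads equal to 7.41% to 19.4% of the members' reads per library. Small nucleolar RNAs lie inside 29 of the members, and 23 of those RNA genes had rows of their own with 34730 reads in all, against 2887480 on the members.

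Libraries of the same group differed widely for single members. The SD within groups on the log2 scale had a median of 1.07 over the members and 1.62 over the 17427 genes with a mean of at least 10. It was smallest for Rpl3 (0.318), Rpsa (0.454), Rpl8 (0.485) and Rps6 (0.503), apart from Rpl24 (0.437), which was at 0 nearly everywhere. It was among the largest for Rpl27 (1.97), Rpl35 (1.91) and Rpl39 (1.90). A read was present in every library for 35 members. After removing group means, pairs of members had a median correlation of 0.0711 across libraries, with 68.2% of pairs positive. For pairs of all genes these were 0.0285 and 58.5%, and the points share library and depth. Neither the SD nor the correlation was compared with genes matched for level. The median member had a mean of 339 normalized counts in the large subunit and 334 in the small.

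Summed over members, ribosomal protein genes took the largest share of protein-coding reads in SST neurons. In control mice the share ran from 0.533% to 0.771% with a median of 0.699% in SST libraries, from 0.565% to 0.710% with a median of 0.627% in PYR libraries, from 0.426% to 0.765% with a median of 0.569% in VIP libraries, and from 0.454% to 0.650% with a median of 0.541% in PV libraries. The ranges of the 4 types overlap. Within the same control mouse the SST library was above the PV library in 9 of 10 mice, above the PYR library in 8 and above the VIP library in 8. In UCMS mice the SST median was 0.646%, against 0.584% in PV, 0.565% in VIP and 0.533% in PYR libraries, and SST was above PYR in 10 of 10 mice, above VIP in 8 of 10 and above PV in 8 of 9. SST neurons were thus at the top of the order in both arms, whereas PYR neurons were second in control mice and last in UCMS mice. The SST share was 1.21 times the mean of the other types in control mice, whether taken of protein-coding or of all reads. No test was made of these sums, because the genes were chosen with earlier results known.

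**Figure D2:**
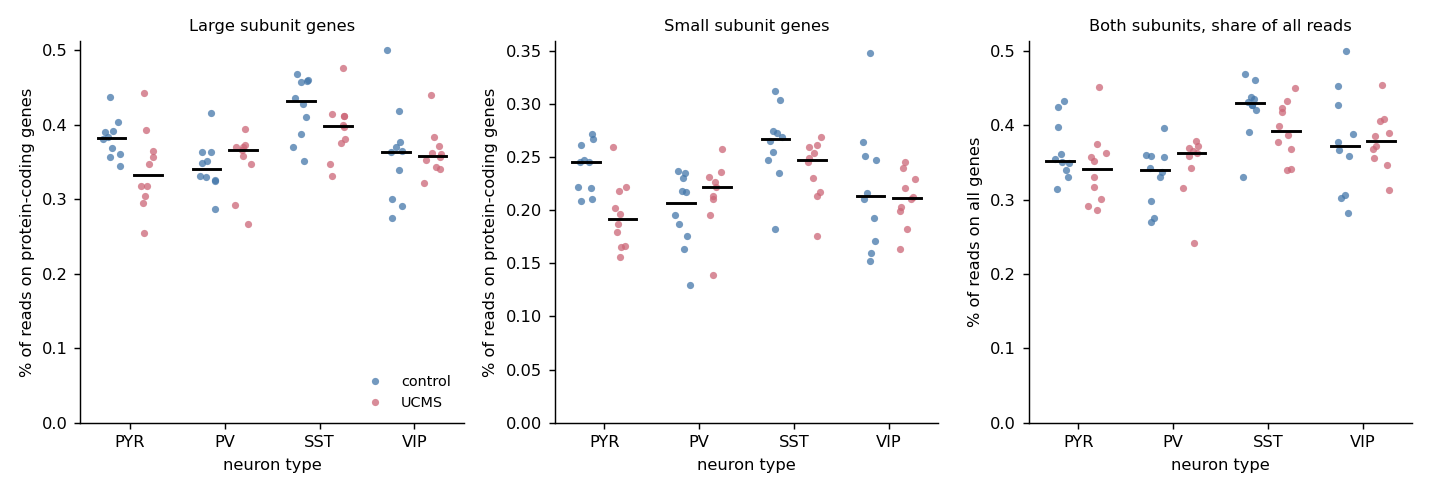
Percent of reads on ribosomal protein genes in each library (vertical axes from 0) by neuron type, control in blue and UCMS in red, with the group median as a black bar: large subunit and small subunit genes as a share of protein-coding reads, and both as a share of all reads. SST medians are the highest in each panel, and the PYR medians of the arms, 0.627% and 0.533% of protein-coding reads over both subunits, lie closer together as a share of all reads (0.353% and 0.341%).

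Both subunits showed this order. In control mice the large subunit genes had a median share of 0.432% in SST, 0.382% in PYR, 0.364% in VIP and 0.340% in PV libraries, and the small subunit genes 0.267%, 0.245%, 0.213% and 0.207%. The ratio of large to small subunit reads had medians between 1.58 and 1.72 in the 4 types, within ranges that overlapped and reached from 1.20 to 2.49. Among the markers of other cells, the oligodendrocyte sum was also highest in SST libraries, with a median of 2358 (range 1326 to 4440) in control mice against 2122, 2065 and 1500 in PYR, PV and VIP libraries. Of the 11 oligodendrocyte markers 0 were called in SST neurons in either arm, with median log2 fold changes of 0.44 and 0.76. The astrocyte sum was lowest in SST libraries of control mice (median 7869), and 1 of its 10 markers, Slc1a2, was called lower. Their part in the ribosomal protein sums was not tested.

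Gene by gene, each type was set against the average of the remaining 3 within the mice of 1 arm, keeping the mouse as a block, over 17498 genes in control and 17638 in UCMS mice. Of the 77 members 76 passed the filter of a mean of at least 10 normalized counts; Rpl24 did not. At an adjusted p of 0.05 (limma), 1 member was higher in SST and 1 lower in PV neurons of control mice, and 1 was lower in PV neurons of UCMS mice. Of all genes, 2.49% were called in SST neurons of control mice (1.4% higher), 7.35% in PV neurons of control mice (3.7% lower) and 11% in PV neurons of UCMS mice (6.57% lower), so the shares of members called (1 of 76 each) were near or under those of all genes. In VIP and PYR neurons 0 members were called in either arm, against 4.23% and 6.26% of all genes in control mice and 6.67% and 8.18% in UCMS mice, and 0 were called in SST neurons of UCMS mice, against 3.64%. At an unadjusted p under 0.05 (limma) there were 6 members (7.89%) in VIP and 3 (3.95%) in PYR neurons of control mice. The shares of all genes there were 14.996% and 15.7%. In UCMS mice 2 members in VIP, 6 in PYR and 7 in SST neurons (2.63%, 7.89% and 9.21%) were under that cutoff. The shares of all genes were 18.6%, 17.2% and 11.9%, so each share of members was under that of all genes. Where limma called 0, DESeq2 called Rpl28 in PYR and Rpl3 in SST neurons of UCMS mice, and edgeR with its default settings called 0 members. With robust dispersions, a setting added after seeing the data, edgeR called Rps3 (0.66) in PYR neurons of control mice, Rpl28 (-1.01) in PYR neurons of UCMS mice, and Rpl3, Rps6 and Rpl19 in SST neurons of UCMS mice.

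Rpl3 was higher in SST neurons of control mice. In control mice its values ran from 2273 to 3084 normalized counts with a median of 2801 in SST libraries, from 1438 to 2658 (median 1958) in PYR, from 1180 to 2427 (median 1785) in PV and from 1470 to 3396 (median 2346) in VIP libraries. SST values were high and close together, and only the lower SST libraries overlapped with PYR and PV. The log2 fold change was 0.48 (SE 0.14, adjusted p = 0.0337), and the SST library was above the mean of the other types in 10 of 10 mice and the highest of the 4 in 8. In UCMS mice the SST values ran from 1950 to 2757 with a median of 2344, against medians of 1737, 1921 and 1992 in PYR, PV and VIP libraries. The log2 fold change there was 0.37 (SE 0.12, adjusted p = 0.0655), with SST above the mean of the others in 8 of 9 mice. In PV neurons Rpl3 was at -0.38 in control and -0.26 in UCMS mice, at adjusted p of 0.0809 and 0.198. The SST call in control mice held in DESeq2 (0.46, adjusted p = 0.00679) and in edgeR with robust dispersions (0.44, adjusted p = 0.0345), but not in edgeR with default settings (0.45, adjusted p = 0.107), and it was lost without any 1 of 7 of the 10 SST libraries (mice U2, U3, U5, U7, U8, U9 and U10), at log2 fold changes of 0.45 to 0.48 and adjusted p of 0.0578 to 0.0986.

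Rps24, a small subunit protein mutated in some patients with Diamond-Blackfan anaemia, was lower in PV neurons of control mice. Its values ran from 0 to 678 normalized counts with a median of 235 in PV libraries. The medians of the other types were 491 in PYR libraries (262 to 1084), 487 in SST libraries (244 to 608.3) and 348 in VIP libraries (206 to 820). The PV library was below the mean of the other types in 8 of 10 mice and the lowest of the 4 in 6. The log2 fold change was -1.30 (SE 0.38, adjusted p = 0.0147), but PV library U3, with 0 reads of Rps24 and among the 7 libraries with the fewest reads, carried much of it. Without that library it was -0.72 at an adjusted p of 0.270, and without PV library U9 -1.16 at 0.0535 (limma). On recovered reads Rps24 did not pass in DESeq2 (-0.85, adjusted p = 0.0688) or edgeR (-0.83, adjusted p = 0.313). In UCMS mice Rps24 was not low in PV neurons: its median of 582 was the highest of the 4 types, and the log2 fold change was 0.19 (adjusted p = 0.763).

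Rpl36a, a large subunit protein encoded on the X chromosome, was lower in PV neurons of UCMS mice. PV values ran from 4.86 to 256 normalized counts with a median of 79.6, against medians of 167 in PYR (57.6 to 353), 232 in SST (90.9 to 460) and 219 in VIP libraries (76.1 to 299). PV was the lowest of the 4 types in 6 of 9 mice and below the mean of the others in 8. The log2 fold change was -1.46 (SE 0.48, adjusted p = 0.0287). In control mice the PV median was 121 and the log2 fold change -0.45 (unadjusted p = 0.480). The call was lost without PV library U601, U602, U604 or U606, at log2 fold changes of -1.41, -1.10, -1.20 and -1.38. It held in DESeq2 (-1.20, adjusted p = 0.0160) and not in edgeR (-1.22, adjusted p = 0.180). Rpl36al, an autosomal gene for a nearly identical protein, was at -0.11 in control and 0.10 in UCMS mice.

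**Figure D3:**
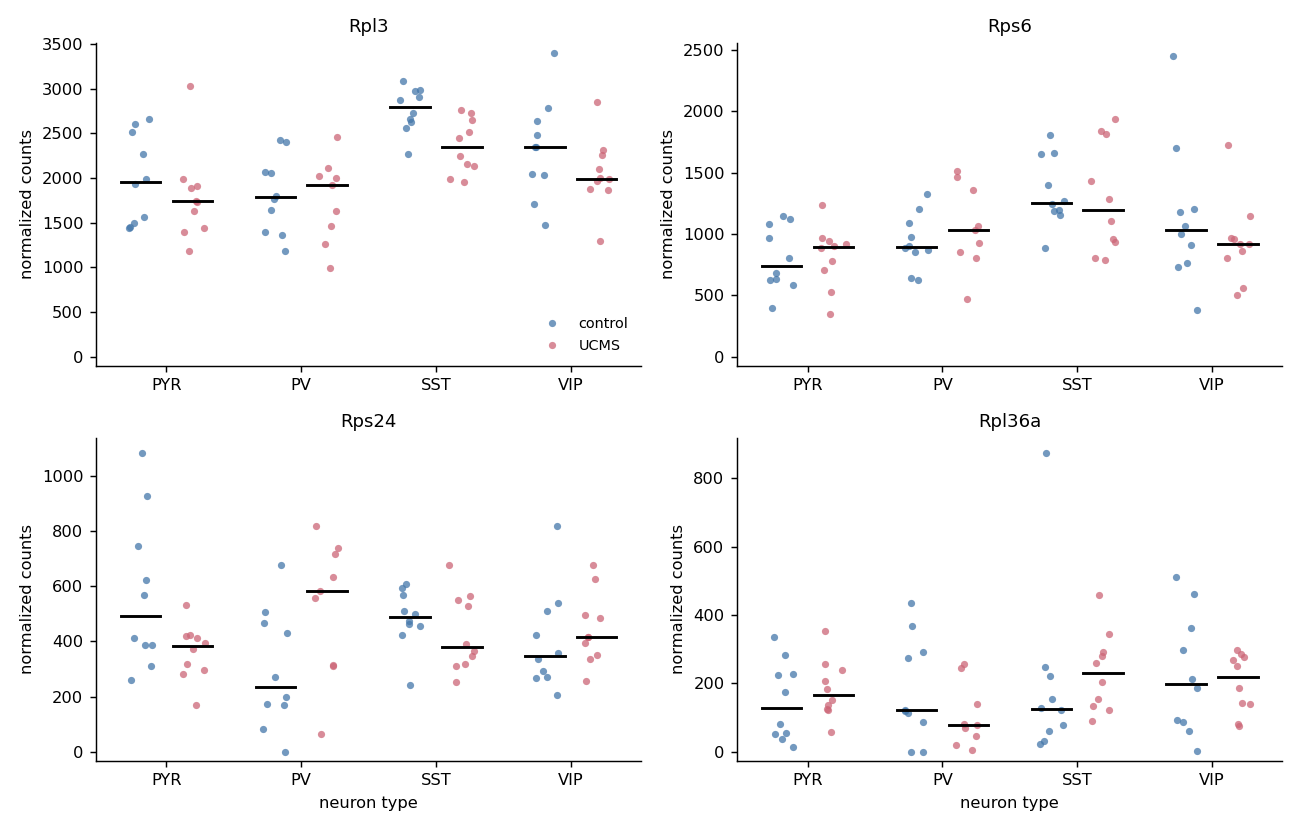
Normalized counts of Rpl3, Rps6, Rps24 and Rpl36a in each library (vertical axes) by neuron type, control in blue and UCMS in red, with group medians as black bars. SST libraries of control mice sit between 2273 and 3084 for Rpl3, and 1 PV library of the control arm is at 0 for Rps24.

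Further members leaned toward or away from SST neurons without passing in limma. Of these, edgeR with robust dispersions called Rpl6 in SST neurons of control mice (0.74, adjusted p = 0.0180), and Rps6 and Rpl19 in those of UCMS mice. Rps6 had log2 fold changes of 0.56 in control (unadjusted p = 0.00907) and 0.47 in UCMS mice (unadjusted p = 0.00764) in SST neurons, and -0.48 and -0.39 in PYR neurons (unadjusted p = 0.0240 and 0.0276). Its medians in control mice were 1255 in SST, 1032 in VIP, 892 in PV and 742 in PYR libraries, and SST was the highest of the 4 in 8 of 10 control and 5 of 9 UCMS mice. Rpl6 was at 0.90 in SST and -0.88 in VIP neurons of control mice (adjusted p = 0.0729 and 0.0601), where its median was 1081 in SST and 525.6 in VIP libraries. Rpl8 was at 0.53 in SST neurons of control mice (adjusted p = 0.265), and Rpl19 at 0.58 in those of UCMS mice (adjusted p = 0.127). Rpl38, which has known roles in selective translation in the embryo, was at -1.04 in SST neurons of control mice (adjusted p = 0.383). Rpl5 was at -0.42 in SST neurons of UCMS mice (adjusted p = 0.192), after 0.41 in control mice. Rps21, Rpl34 and Rpl10 had the highest statistics in PYR neurons of control mice (1.69, 1.19 and 0.74, adjusted p from 0.110 upward), and Rps13 and Rpl12 followed Rpl6 among the lowest statistics in VIP neurons of control mice (-1.62 and -1.32). Rpl13a and Rpl35 were at -1.99 and -1.43 in PV neurons of UCMS mice, at adjusted p of 0.0581 and 0.138; both have 0 reads in several libraries.

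Most members tested lay above the average of the other types in SST neurons of both arms and in PYR neurons of control mice. By the mean log2 value of the members per library, SST was above PYR in 5 of 10 control and 9 of 10 UCMS mice. In SST neurons 54 of 76 members were higher in control mice (median log2 fold change 0.21) and 61 of 76 in UCMS mice (median 0.23), against 47.3% and 51.4% of all genes, with medians of -0.04 and 0.02. The same sign was seen in both arms for 53 of 76 members, where most members were higher in each arm. Across members the SST log2 fold changes of the 2 arms had a Pearson correlation of 0.045, so their sizes did not go together gene by gene. In VIP neurons 55 were lower in control (median -0.20) and 45 in UCMS mice (median -0.06), and in PV neurons 51 (median -0.20) and 41 (median -0.04). PYR neurons had 58 members higher in control mice (median 0.24) but 46 lower in UCMS mice (median -0.09). In PV neurons of UCMS mice the median of all genes was -0.18, so the members there lay above it. The PV median of UCMS mice was near 0 in every fit, from -0.1065 to 0.0713 with 1 PV library left out at a time, so no direction is given for it. The PV median of control mice was -0.09 without PV library U3 and -0.13 without PV library U9, and the SST median of control mice was 0.14 without SST library U3. The PYR median of control mice was 0.10 in DESeq2 and 0.13 in edgeR with robust dispersions. Astrocyte markers moved with some of these contrasts: 2 of 10 were called higher in VIP neurons of control mice and 4 in those of UCMS mice, and 3 were called lower in PYR neurons of UCMS mice. Of 11 oligodendrocyte markers 1, Mal (-2.54), was called lower in VIP neurons of control mice and 3, Cnp, Mobp and Mbp, in those of UCMS mice. Their part in the members' values was not tested. The 4 contrasts within an arm share libraries, and each type's fold change depends on the other 3.

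**Figure D4:**
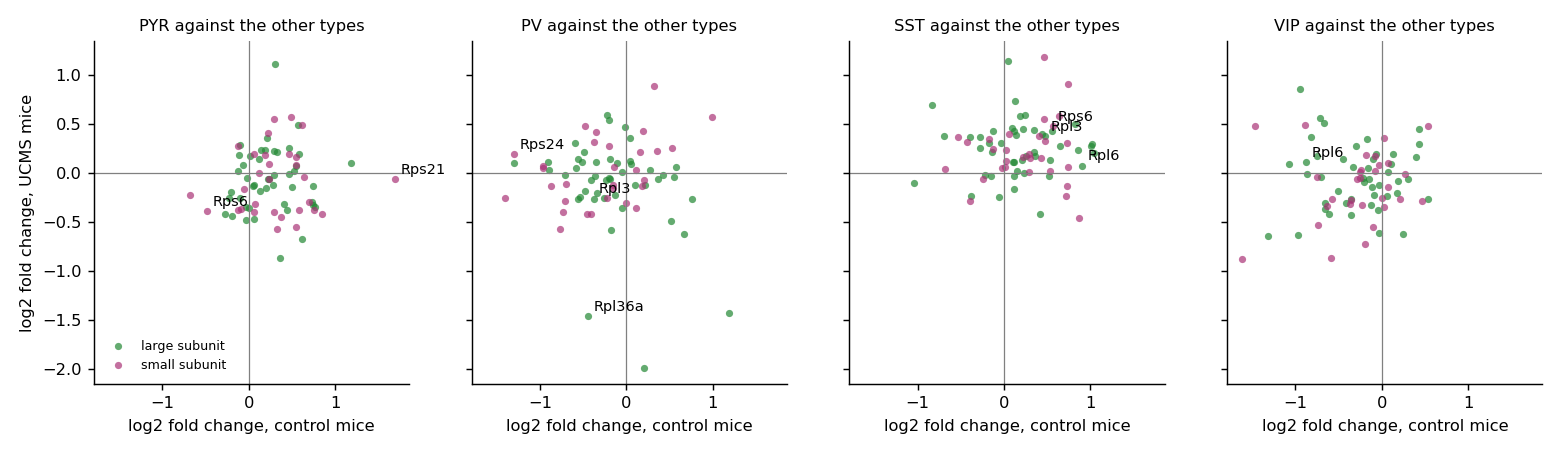
Log2 fold change of each of 76 members in 1 type against the mean of the other types, control mice on the horizontal and UCMS mice on the vertical axis, large subunit in green and small subunit in purple. In SST neurons 46 members lie at the upper right and 7 at the lower left, whereas PYR members lie mostly to the right of 0 and spread to both sides of it vertically.

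Between the arms no member was called in any type. In PYR neurons 0 of 76 members passed an adjusted p of 0.05 in limma, against 0.0808% of 16092 genes (13 genes), and 5 members (6.58%) had an unadjusted p under 0.05 against 6.36% of all genes. In PV, SST and VIP neurons 0 members and 0% of all genes passed, with 1, 5 and 5 members at an unadjusted p under 0.05 (1.32%, 6.58% and 6.58%, against 3.74%, 5.72% and 5.15% of all genes). On the mean over the 4 types 0 members and 0% of all genes passed. There 3 members (3.95%) had an unadjusted p under 0.05, against 6.80% of all genes. For a difference of the stress effect between types 0 members passed (0% of 17427 genes). There 4 members (5.26%) had an unadjusted p under 0.05, against 4.68% of all genes. The smallest were those of Rpl5 (0.0129), Rps24 (0.0135) and Rpl6 (0.0224). On recovered reads edgeR, with default or robust settings, and DESeq2 called 0 members in each type. In simulated data on these libraries limma recovered 10% of genes changed 2-fold and 34% of those changed 4-fold in PYR neurons. In VIP neurons it recovered 2% and 17%. Changes of these sizes could thus be missed, but the rates describe genes at large and not the members. Members had a smaller median SD within groups (1.07 against 1.62, log2 scale, not matched for level), and their own recovery was not tested.

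In PYR neurons the members nonetheless lay mostly lower in UCMS mice. There were 52 of 76 with a lower mean (30 of 46 large subunit and 22 of 30 small subunit genes), and the median log2 fold change was -0.23 (-0.20 and -0.33 for the subunits). Over all genes tested 41.2% were lower and the median was 0.10. The direction of the members' median was the same in limma, edgeR (-0.26) and DESeq2 (-0.28), and leaving out 1 PYR library at a time gave -0.26 to -0.16. This decrease as a list was already known when the genes were chosen and is given as a description. Other measures of the PYR libraries moved with it: protein-coding genes took a median of 58.5% of reads in control and 63.5% in UCMS libraries, and genes detected had medians of 14012 and 16186. The ribosomal protein share was 0.850 times the control median as a share of protein-coding reads and 0.968 times as a share of all reads. With the protein-coding share as a covariate the members' median was -0.25, and with genes detected as a covariate -0.18. Markers of other cells were near level, with astrocyte sums at medians of 9764 and 9160 and oligodendrocyte sums at 2122 and 1886; 0 of those 21 markers were called, and their part was not tested.

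The members with the smallest p in PYR neurons belong mainly to the small subunit. Rps23 ran from 708 to 2268 normalized counts with a median of 1402 in control and from 604.1 to 1540 with a median of 913 in UCMS libraries. Of the 10 UCMS libraries 9 lay below the control median, and the ranges overlapped. Its log2 fold change was -0.56 (SE 0.18, unadjusted p = 0.00234, adjusted p = 0.634). Rps21 had medians of 254 (151 to 545) and 82.2 (42.4 to 266), a log2 fold change of -1.31. Rps3, which helps form the entry channel for messenger RNA, had medians of 874 (530 to 1233) and 544 (340 to 837), at -0.61, with all 10 UCMS libraries below the control median. Rplp0, the base of the large subunit's stalk, had medians of 615 (337 to 802) and 388 (168 to 539), at -0.73, also with all 10 below. The adjusted p of Rps21, Rps3 and Rplp0 was 0.634 to 0.677. The highest moderated t, the fold change over its standard error with variances shared across genes, belonged to Rpl35 (log2 fold change 1.05), Rpl36a (0.64) and Rpl41 (0.29).

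**Figure D5:**
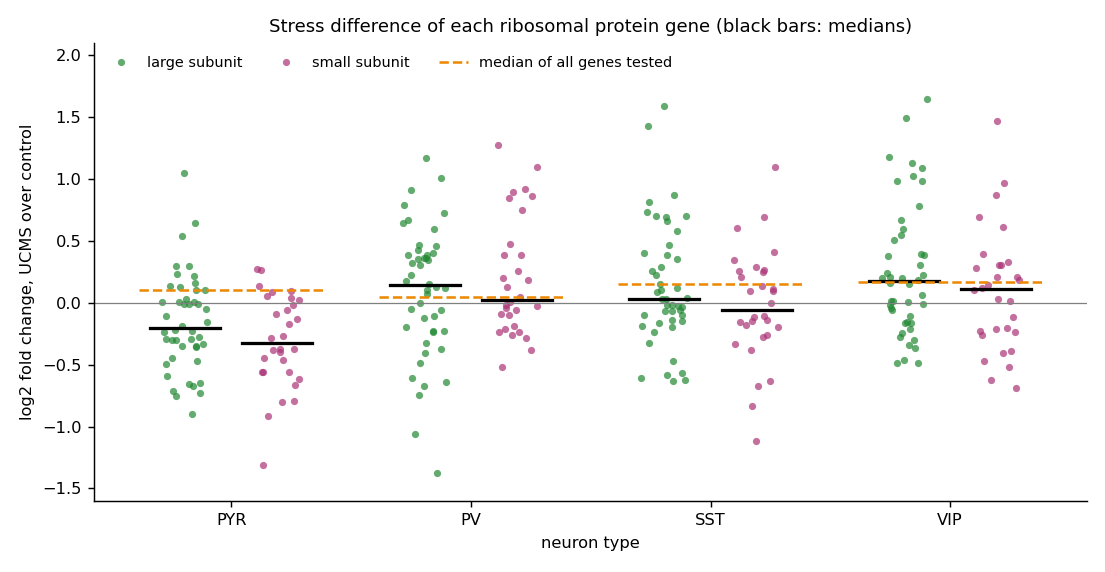
Log2 fold change of each of 76 members between UCMS and control mice (vertical axis) in the 4 neuron types, large subunit in green and small subunit in purple, with black bars at the medians and dashed lines at the median of all genes tested. The PYR medians of -0.20 and -0.33 lie under the line for all genes at 0.10.

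The interneurons showed no common direction. The median log2 fold change of the members was 0.12 in PV, 0.01 in SST and 0.15 in VIP neurons, against medians of all genes of 0.05, 0.15 and 0.17. The PV and VIP medians turned negative in DESeq2 (-0.01 and -0.03) and without the 7 libraries with the fewest reads (-0.06 and -0.14), and the SST median in edgeR and DESeq2 (-0.08 and -0.14), so no direction is given for them. In PV neurons Rps24 had the smallest p: its median was 235 (0 to 678) in control and 582 (65.9 to 818) in UCMS libraries, a log2 fold change of 1.27 (SE 0.50, unadjusted p = 0.0111, adjusted p = 0.982). Library U3, at 0, is 1 of the control libraries behind that value. Rps27a, which is made as a fusion with ubiquitin, was at 0.92 and Rpl22 at 0.79, and Rpl35, Rpl11 and Rpl14, with the lowest moderated t, were at -1.37, -0.61 and -0.67.

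In SST neurons Rpl8, a protein of the large subunit's core, had medians of 1175 (643 to 1893) in control and 823 (483 to 1172) in UCMS libraries, and all 10 UCMS libraries lay below the control median. Its log2 fold change was -0.63 (SE 0.23, unadjusted p = 0.00727, adjusted p = 0.774). Rpl6 was at -0.58, again with all 10 UCMS libraries below the control median, and Rpl10, Rpl35 and Rps27, with the highest moderated t, were at 0.73, 1.59 and 1.10. Rpl8 was also among the lowest on the mean over types (-0.33, adjusted p = 0.702). In VIP neurons Rpl5 was at 0.60, Rpl37a at 1.65 and Rpl14 at 1.17, and Rps23 was at -0.62 (adjusted p = 0.932). Rpl5 differed in sign between SST (-0.47) and VIP neurons: it ran from 633 to 2254 in control and from 385 to 1268 in UCMS SST libraries, and from 179 to 1486 and from 844 to 1917 in VIP libraries.

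By role, the stalk proteins Rplp0, Rplp1 and Rplp2, which gather translation factors at the large subunit, were all lower in PYR neurons of UCMS mice (-0.73, -0.18 and -0.47), with unadjusted p from 0.00918 to 0.322. In the other types their log2 fold changes lay between -0.46 and 0.22. Rpl5 and Rpl11 carry the 5S ribosomal RNA and bind the p53 regulator Mdm2 when ribosome assembly is disturbed. They were at 0.10 and -0.28 in PYR, 0.43 and -0.61 in PV, -0.47 and -0.20 in SST and 0.60 and 0.51 in VIP neurons. The 4 genes on the X chromosome, Rpl10, Rpl36a, Rpl39 and Rps4x, ranged from -0.50 to 0.64 in PYR neurons, and both signs occurred among them in each type. Rpsa, which also serves as a laminin receptor, was among the steadiest members, with group medians from 1001 to 1738 normalized counts. Against the other types of UCMS mice it was at -0.37 in PYR and 0.36 in VIP neurons (adjusted p = 0.135 and 0.158).

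Several elongation factors differed between the types in both arms. Eef1a1, which brings aminoacyl-tRNA to the ribosome and whose message also begins with a TOP motif, was higher in SST neurons (log2 fold change 0.53 in control and 0.37 in UCMS mice, adjusted p = 8.03e-06 and 0.000527) and lower in PV neurons (-0.78 and -0.58, adjusted p = 9.88e-13 and 3.56e-09). Its control medians were 6350 in SST, 5041 in PYR, 5019 in VIP and 3162 in PV libraries. Eef1a2, the form of that factor found in mature neurons and muscle, had the opposite PV value, 0.58 in control and 0.45 in UCMS mice, and was lower in VIP neurons (-0.48 and -0.28). Eef2, the translocation factor, was higher in PV (0.38 and 0.44) and lower in PYR neurons (-0.43 and -0.31) in both arms. Of the 10 elongation factors 3 were thus called in PV neurons of each arm, 2 higher and 1 lower, against 7.35% of all genes in control and 11% in UCMS mice. In VIP neurons 2 of 10 were called lower in each arm, against 4.23% and 6.67% of all genes called: Eef1a2 with Eif5a (-0.99) in control and with Eef1b2 (-1.14) in UCMS mice. Of the 37 initiation factors 1 was called in each type of control mice: Eif4h in PYR (0.65), Eif4g2 in PV (0.44), and Eif4a2 in SST (0.55) and VIP neurons (-0.45), against 6.26%, 7.35%, 2.49% and 4.23% of all genes in PYR, PV, SST and VIP neurons. In UCMS mice 1 of 37 was called in PYR, 2 in PV, 0 in SST and 1 in VIP neurons. The shares of all genes called there were 8.18%, 11%, 3.64% and 6.67%.

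Few of the genes that build and regulate ribosomes were called, as were few of all genes: 6.26% in PYR, 7.35% in PV and 4.23% in VIP neurons of control mice, and 8.18%, 11% and 6.67% in those of UCMS mice. Of the 51 genes for ribosome biogenesis, 1 was called in PYR neurons of control mice, Nhp2 of the H/ACA particles (2.59), and 1 each in PYR, PV and VIP neurons of UCMS mice, Ubtf (0.69), Polr1a (-1.61) and Nhp2 (-2.20). Of the 20 genes of the mTOR pathway and growth control, Larp1 and Akt1 were higher in PV neurons of UCMS mice (0.42 and 0.73), Deptor in PYR neurons of UCMS mice (1.46), and Eif4ebp1 in PYR neurons of control mice (2.28). Of 11 genes tested for ribosome surveillance and dormancy, Habp4, which binds idle ribosomes, was higher in PV neurons of control mice (0.71). Of other transcripts listed as TOP messages or snoRNA hosts, Cct5 was lower in VIP neurons of control mice (-0.92, 1 of 16 tested) and Gas5 in PV neurons of UCMS mice (-1.48, 1 of 17). Among ribosomal genes outside the symbol rule 0 of 9 measured were called between types or arms. Rps3a1 had group medians between 545 and 931 normalized counts and Fau between 269 and 467, within the range of the members. Between the arms 0 genes of these lists passed in any type. The biogenesis genes had median log2 fold changes of 0.16, 0.27, 0.42 and 0.24 in PYR, PV, SST and VIP neurons, above the medians of all genes in each, and in PYR neurons on the other side of 0 from the ribosomal proteins (-0.23); this contrast was not tested.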

How the data were processed

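The authors deposited 1 table of normalized counts for 79 libraries: read counts per gene, each library divided by 1 size factor. Such scaled values are treated here as a signal that is never negative. HISAT2, SAMtools 1.3 and DESeq2 are named in the submitters' processing notes, with GRCm38 (mm10); no source used here gives the read counter, annotation version or strand setting. Of the 38879 gene IDs, 38636 matched GENCODE M21.

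The low values are whole multiples of what 1 read is worth, and 100% of values came out as whole reads within 0.001 reads, so the reads behind the deposited signal were recovered. They gave the totals per library, the floor of 3 reads for a value of 0, and the count tests. Intervals and floors cover counting error only, since these reads carry no molecular identifiers.

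Genes with a mean of at least 10 normalized counts over the libraries compared were tested with limma 3.58.1 (R 4.3.3; trended, robust variances) on log2(value + 4), which understates the change of low genes. P-values were adjusted over all genes tested (Benjamini-Hochberg) and called at 0.05. UCMS and control mice were compared within each type, averaged over types, and for a difference between types. Within an arm each type was set against the average of the remaining types, keeping the mouse as a block, because libraries with 1 mouse number come from the same animal. Same-mouse libraries of different types barely deviated together: over 117 pairs the median correlation of deviations from group means was 0.00773, with 0 pairs over 0.1. Each library is 1 type of 1 mouse. P-values between the arms within a type measure spread between mice. Those between types measure the spread of libraries that is left after the mouse block.

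Alternatives were other pseudocounts (1 and 16), a mean of at least 50 or no filter, quantile normalization, scaling to protein-coding reads, DESeq2 1.42.0 and edgeR 4.0.16 (quasi-likelihood) on recovered reads, a fit with or without the mouse, covariates, and left-out libraries. With its default settings edgeR called 885 genes between the arms in VIP neurons, where limma called 0. EdgeR with robust dispersions and its newer quasi-likelihood method was then added after seeing that count, and called 0; both sets of results are given. Leaving out single SST and PV libraries between types was also chosen after seeing the data.

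Named genes are members called in a comparison, or the 3 with the most extreme moderated t in a direction where fewer than 3 were called; the 4 highest and lowest per kb in each subunit; the 4 with the largest and smallest spread; a list of members with known roles; and called genes of the other lists (elongation, initiation, mTOR, other TOP transcripts, biogenesis, surveillance, and ribosomal genes outside the rule). Rpl5, Rpl11 and single further members were named for their role or their likeness to a called value. Some genes that this rule names are not reported here. The members and lists were chosen with earlier results of these data known. The limma test was checked on simulated counts with 2-fold and 4-fold changes, 100 genes of each. For PV against the other types of control mice it recovered 12 and 31 of them, with 9 false calls. For SST neurons it recovered 10 and 31, with 2 false calls. Between the arms there were 2 false calls in PYR, 4 in PV, 0 in SST and 0 in VIP neurons.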

Additional observations from a re-analysis of the deposited data

Results flagged for a closer look

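Of 112 sets of libraries examined, a single library stood apart from the rest of its group in 13. Chance gives about 1 in 20 for independent and normally spread values. The sets here share libraries and hold counts that reach 0, so that rate is no measure for them. Several of the flagged libraries recur. PV library U604 of a UCMS mouse was lowest for Rps24 (65.9 normalized counts, the others 312 to 818), Rps23 (132, the others 594 to 1896) and Rps21 (0, the others 56.1 to 286). PV library U3 of a control mouse, which had few reads, was at 0 for Rps24 (the others 84.3 to 678) and at 0 for Rps3 (the others 143 to 1265). SST library U10 of a control mouse had 2.40 for Rps23, against 561 to 1994 in the others.

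The remaining flags each concern 1 gene or sum. Rps24 was lowest in SST library U2 of the control arm (243.9, the others 423 to 608.3). Rpl36a was lowest in VIP library U9 (1.52, the others 59.7 to 511) and Rpl6 in VIP library U10 (14.9, the others 254 to 1308), both of control mice. Rps23 was highest in PYR library U602 of a UCMS mouse (1539.7, the others 604.1 to 995), without which its log2 fold change between the arms was -0.64 (limma adjusted p = 0.376). Rplp0 was lowest in SST library U606 (138.6, the others 357 to 585) and Rps21 in VIP library U601 (0, the others 36.0 to 411). The large subunit share of protein-coding reads was highest in VIP library U605 of a UCMS mouse, at 0.44%, with the others between 0.322% and 0.384%.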

How the results depend on the processing

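Of 693 values recomputed for 42 results under the alternatives, 619 kept their direction and side of the threshold or moved by less than the spread between libraries, 22 fell short of the threshold, 12 passed it, 38 moved further and 2 changed sign. The counts of members called between types were small and moved easily. In PV neurons of control mice 1 member was called, and 0 without a filter, 0 in edgeR and 3 in DESeq2. In SST neurons of control mice 1 was called, and 2 with a pseudocount of 16, 2 after quantile normalization, 0 without a filter, 0 with a 2-fold minimum, 0 in edgeR, 2 in robust edgeR and 5 in DESeq2. In PV neurons of UCMS mice 1 was called, and 0 after quantile normalization, 0 in edgeR with either setting and 2 in DESeq2. In SST neurons of UCMS mice 0 were called, and 1 with a mean of at least 50, 1 after quantile normalization, 1 scaled to protein-coding reads, 1 in DESeq2 and 3 in robust edgeR. Quantile normalization called 1 in VIP neurons of control mice, robust edgeR 1 in PYR neurons of each arm and DESeq2 1 in PYR neurons of UCMS mice.

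Without the replicate block Rpl13a also passed in PV neurons of UCMS mice, making 2, and no other call of a member changed. Leaving out 1 library at a time gave 0 to 2 members in PV neurons of either arm, 0 to 1 in SST neurons of either arm and 0 between the arms in PYR neurons. Rpl36a in PV neurons of control mice, at -0.45, turned to 0.0113 in edgeR and ranged from -0.7029 to 0.1429 with 1 library left out, the highest without PV replicate 2. The PYR ratio of UCMS to control mice was 0.850 of protein-coding reads and 0.968 of all reads. In each case the cause was not tested. At these depths 42 of the 77 members had 0 reads in some library, which allows up to 3 reads there.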

Other observations

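Mouse by mouse, Rps6 was below the mean of the other types in PYR neurons of 8 of 10 control and 8 of 9 UCMS mice, and above it in SST neurons of 9 of 10 and 6 of 9. Rpl3 and Rps6 were the members with an unadjusted p under 0.05 and the same sign in both arms in SST neurons, Rpl3 in PV and Rps6 in PYR neurons; VIP neurons had 0 such members. Across the 76 members the log2 fold changes of the arms, which share no library, had Pearson correlations between -0.0867 and 0.0693 in the 4 types, a description across genes that share libraries within each arm.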
